A study of Homo sapiens with 6 samples.

Results

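The proteasome is the protease complex that degrades proteins tagged with ubiquitin. Its genes were examined here in C4-2B cells treated with SR2211, XY011 or enzalutamide (ENZ). Members were all genes whose symbol is PSMA, PSMB, PSMC, PSMD, PSME, PSMF or PSMG followed by a number and that were listed in each of the 6 libraries. There were 46 of them among 13364 symbols listed in all 6. The rule uses symbols and a minimum level, not the changes. A change was computed where a gene reached 1 in either library of a pair, which held for 45 members with SR2211, 44 with XY011 and 45 with ENZ. PSMB8 and PSMB9 were the members that missed this minimum in some pairs. PSMB8 with SR2211 and PSMB9 with ENZ reached it in the treated library alone, so their change there could only be an increase.

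The complex is built from a barrel-shaped core particle and a regulatory particle that caps it. The PSMA genes encode the outer rings of the core, which gate entry, and the PSMB genes encode the inner rings, where the proteolytic sites lie. The PSMC genes encode the ATPases that unfold substrates, and most PSMD genes encode the other subunits of the cap, which bind ubiquitin and remove it. PSME genes encode alternative activators of the core, PSMF1 encodes the regulator PI31, and the PSMG genes with PSMD5, PSMD9 and PSMD10 encode assembly chaperones. In many mammalian cells these genes are raised together by the transcription factor NFE2L1 when proteasome activity runs short.

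C4-2B is an established line of human prostate cancer cells, a descendant of LNCaP that can metastasise to bone. Cells were kept in medium made mostly with charcoal-stripped serum, which is poor in androgens, and RNA was taken 48 h after an agent or vehicle was added. In each of 3 experiments 1 treated library was set against 1 vehicle library. The treated libraries had SR2211, an inverse agonist of a nuclear receptor, at 5 µM, XY011, known here by its code alone, at 5 µM, and ENZ, an antiandrogen drug, at 20 µM. Titles define the groups, while the extraction text of the SR2211 and XY011 libraries gives another code in place of XY011 and that of the ENZ pair gives SR2211. Levels were RPKM in the SR2211 experiment and FPKM in the other experiments, so all are per gene length. With 1 library per group, differences have no replicate check and no p-value is given.

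Depth was 8163382 mapped reads with SR2211 and 8200243 in its vehicle, worked out from the values of microRNA genes, and is unknown for the XY011 and ENZ experiments. All 8 luminal prostate markers examined, such as KLK3, KRT8 and KRT18, stood at 1 or more in each library. Their summed level was 1118 RPKM with SR2211 against 2946 in its vehicle, 1327 FPKM with XY011 against 2999, and 3235 FPKM with ENZ against 5288. Basal markers summed to at most 4.49 and leukocyte markers to at most 13.3, nearly all of it CD68, while the leukocyte marker PTPRC, listed in the XY011 experiment alone, reached at most 0.18. Stromal markers summed to between 2.38 and 5.71 in the SR2211 and XY011 experiments, and to 44.6 FPKM with ENZ against 28.1 FPKM in its vehicle. KLK3 carried much of the luminal sums except with SR2211, where it had 212 RPKM. Some luminal markers were higher in a treated library. FOLH1 was so with SR2211 (277 RPKM against 204) and with ENZ (793 FPKM against 564), and TMPRSS2 with XY011 (156 FPKM against 125). HOXB13 was higher with ENZ (164 FPKM against 131). KRT8 was slightly higher with SR2211 (145 RPKM against 136) and with XY011 (110 FPKM against 105). The part that these marker differences have in the proteasome values was not tested.

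Most proteasome genes stood lower after treatment in all 3 experiments. The median log2 change of the members was -0.32 with SR2211, -0.54 with XY011 and -0.22 with ENZ. Over all genes tested the medians were -0.07, -0.14 and -0.02 in the same order. Members below their vehicle by any amount numbered 37 of 45 with SR2211, where 54.4% of all 12154 genes tested were lower. With XY011 they numbered 41 of 44, against 57.7% of 12617 genes, and with ENZ 37 of 45, against 52.3% of 19278 genes. Among all genes at a mean of 20 or more in the pair, 59.8% were lower with SR2211, 57.8% with XY011 and 55.7% with ENZ. Changes are log2((treated + 1)/(vehicle + 1)). Genes with small changes could switch sides under other scalings, as given below. In bulk RNA, fewer cells of a type and less RNA per cell cannot be told apart.

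By size, a gene was called at a log2 change of 0.5 or more, a 1.41-fold difference, and a larger call was made at 1. With SR2211, 11 of 45 members were lower by 0.5 or more and 2 were higher, against 21.4% and 16.6% of all genes. With XY011, 25 of 44 were lower and 1 was higher, against 31.6% and 19.7%. With ENZ, 3 of 45 were lower and 2 higher, against 15.8% and 14.4%. The share of members called lower was thus above the background with XY011 (56.8%), close to it with SR2211 (24.4%) and below it with ENZ (6.67%). Most members are abundant, and the background depends on level. Among all genes at a mean of 20 or more in the pair, 30.8% were called lower with XY011, 24.9% with SR2211 and 10.6% with ENZ. The shortfall with ENZ was smaller beside that share and rests on few members. After quantile normalization of each pair, the members lower by 0.5 or more numbered 2 with SR2211, where 19.0% of all genes were, 16 with XY011, where 25.7% were, and 0 with ENZ, where 14.5% were. The share with SR2211 was then below the background. At the larger call, 7 members were lower with XY011, where 13.2% of all genes were, and none was higher, against 7.59%. No member reached 1 in either direction with SR2211, where 5.75% of all genes were lower by 1 or more and 5.1% higher, or with ENZ, where the shares were 4.67% and 3.68%.

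**Figure D1:**
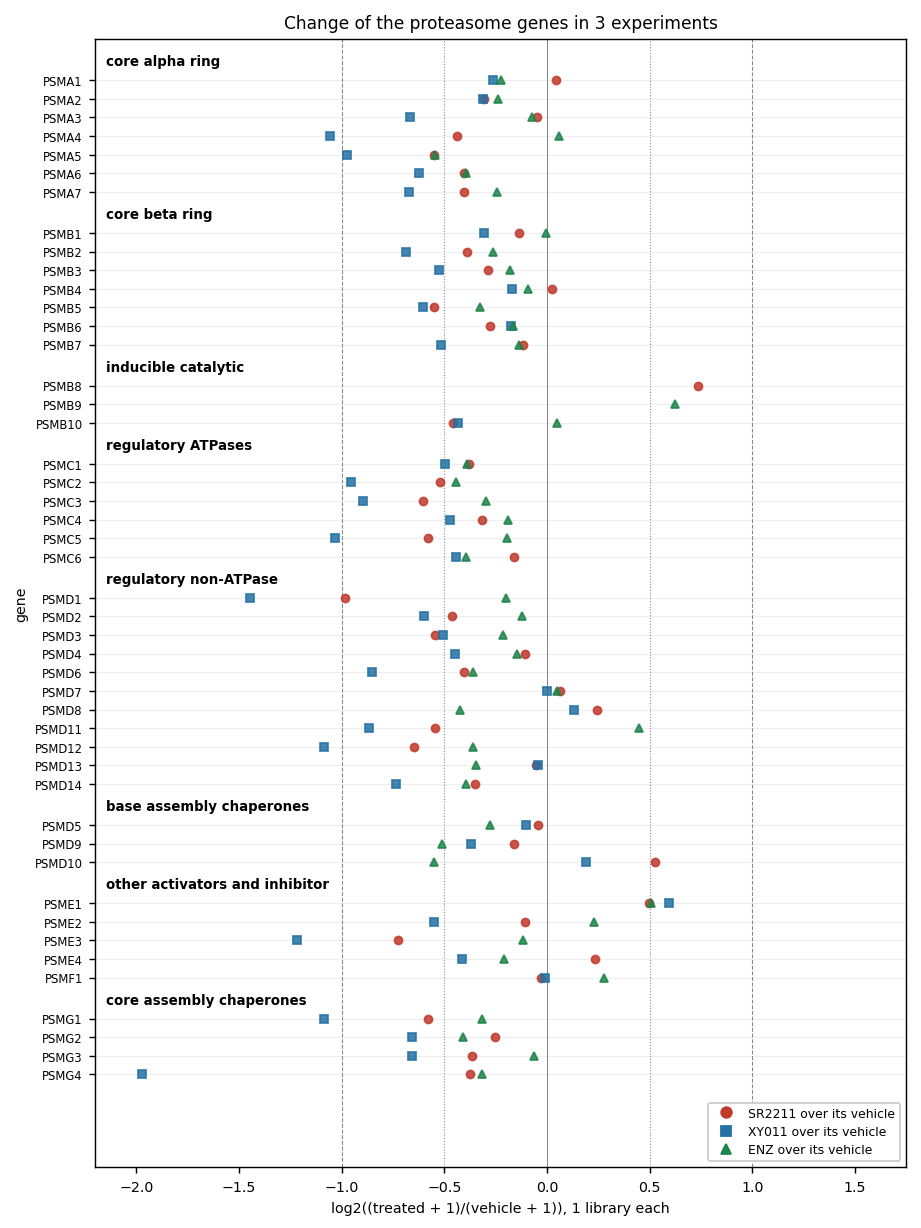
Log2 change of each of the 46 proteasome genes (rows, grouped by role) over the vehicle of its own experiment, with SR2211 as circles, XY011 as squares and ENZ as triangles, 1 library each. Dotted lines mark 0.5 and broken lines 1. Most symbols lie left of 0, the XY011 squares mostly farthest, with PSMG4 at -1.97 and PSMD1 at -1.45, while PSME1 lies right of 0 in each experiment.

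The promoters of 40 of the 46 members were found in the RefSeq table (GRCh38.p14, 250 bases before to 50 after each start), as 49 windows. Motifs of 5 kinds were looked for on both strands. The core of the antioxidant response element, TGACNNNGC, through which NFE2L1 and NFE2L2 act, was in 15 of the 49 windows (30.6%), against 13.3% of all 35116 windows and 14.5% of those of the genes tested. The ETS motif CGGAAGT was in 15 windows as well (30.6%), against 6.83% of all windows and 11.4% of those of the genes tested. The CCAAT box was in 19 windows (38.8%, against 34.6% of all), the E-box CACGTG in 3 (6.12%, against 7.26%) and the cyclic AMP response element TGACGTCA in none, against 1.85%. The antioxidant core and TGACGTCA share their first letters, and a match is only a description of the sequence.

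The antioxidant core was held by 5 members that were lower by 1 or more with XY011, which were PSMA4, PSMC5, PSMD1, PSMD12 and PSMG1. Promoter windows are shown for 3 of them (PSMD1, PSMD12 and PSMG1), picked after their values were seen, and for PSME1, which holds it and was higher in each experiment. Capitals mark the match. The windows lie at chr2:231056617-231056916, plus strand, for PSMD1, chr17:67366528-67366827, minus strand, for PSMD12, chr21:39183402-39183701, minus strand, for PSMG1, and chr14:24135944-24136243, plus strand, for PSME1. Counted from the start site, the match begins at -165 in PSMD12, -183 in PSMG1, -86 in PSME1 and at base 40 of the transcript in PSMD1.
PSMD1: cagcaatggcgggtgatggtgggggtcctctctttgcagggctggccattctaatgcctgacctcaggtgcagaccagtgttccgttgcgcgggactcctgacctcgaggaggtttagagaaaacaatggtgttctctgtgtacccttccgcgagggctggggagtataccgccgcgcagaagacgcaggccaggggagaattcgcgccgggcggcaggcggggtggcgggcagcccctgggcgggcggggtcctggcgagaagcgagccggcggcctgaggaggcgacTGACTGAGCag
PSMD12: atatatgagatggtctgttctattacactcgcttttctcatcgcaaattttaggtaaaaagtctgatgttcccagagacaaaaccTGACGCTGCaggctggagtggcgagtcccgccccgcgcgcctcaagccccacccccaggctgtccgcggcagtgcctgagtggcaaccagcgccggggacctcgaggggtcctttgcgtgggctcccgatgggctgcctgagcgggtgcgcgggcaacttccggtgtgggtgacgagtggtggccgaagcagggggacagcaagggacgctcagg
PSMG1: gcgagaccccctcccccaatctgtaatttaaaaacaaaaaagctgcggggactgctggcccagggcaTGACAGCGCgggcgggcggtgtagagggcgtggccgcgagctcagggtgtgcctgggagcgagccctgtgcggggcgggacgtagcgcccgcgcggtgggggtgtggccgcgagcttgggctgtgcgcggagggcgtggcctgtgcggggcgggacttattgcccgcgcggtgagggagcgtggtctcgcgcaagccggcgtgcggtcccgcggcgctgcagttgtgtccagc
PSME1: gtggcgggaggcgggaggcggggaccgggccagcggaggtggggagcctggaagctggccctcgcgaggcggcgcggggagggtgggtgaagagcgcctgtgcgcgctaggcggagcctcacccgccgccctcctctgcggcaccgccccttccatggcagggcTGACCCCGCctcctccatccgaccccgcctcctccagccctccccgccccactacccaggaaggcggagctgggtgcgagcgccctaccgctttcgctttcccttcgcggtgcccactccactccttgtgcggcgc
The median log2 change of members with the antioxidant core was -0.30 with SR2211 (14 members), -0.54 with XY011 (14) and -0.20 with ENZ (15). For members without it in their windows, or with no window, the medians were -0.35 (31), -0.56 (30) and -0.24 (30). Lower by 1 or more with XY011 were 5 of the 14 members with the core and 2 of the 30 others, where 13.2% of all genes were. By 0.5 or more with XY011 the counts were closer, 9 of 14 and 16 of 30, where 31.6% of all genes were. With SR2211 they were 5 of 14 and 6 of 31 (21.4% of all genes), and with ENZ 1 of 15 and 2 of 30 (15.8%). The share among all genes with the core in their windows is not given here, and a link between the core and the change was not tested. These are counts of genes in 1 pair of libraries per experiment, with no test.

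In the core particle, all 7 genes of the outer alpha rings were lower with XY011, 5 of them by 0.5 or more, and 6 of 7 were lower with SR2211 and with ENZ. Their medians were -0.40 with SR2211, -0.67 with XY011 and -0.24 with ENZ. PSMA4, which encodes subunit alpha3 of the ring, had 119 RPKM with SR2211 against 161 in its vehicle, 86.4 FPKM with XY011 against 181, and 240.1 FPKM with ENZ against 230.4. It was the core gene with the largest decrease with XY011 (-1.06), and its level with ENZ was close to its vehicle's (0.06). PSMA5, subunit alpha5, had 20.0 RPKM with SR2211 against 29.8 in its vehicle, 14.6 FPKM with XY011 against 29.6, and 189.5 FPKM with ENZ against 277. It was lower in each experiment, with log2 changes of -0.55 with SR2211, -0.97 with XY011 and -0.54 with ENZ, and was the 1 core gene called lower with ENZ. PSMA3, subunit alpha7, had 86.5 RPKM with SR2211 against 89.6 in its vehicle, 51.1 FPKM with XY011 against 81.7, and 154 FPKM with ENZ against 162. Its change with SR2211 (-0.05) was the one that differed most from that with XY011 (-0.67) among the core genes.

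PSMA6 and PSMA7, subunits alpha1 and alpha4, had log2 changes of -0.40 and -0.40 with SR2211, -0.63 and -0.67 with XY011, and -0.39 and -0.24 with ENZ. PSMA2, which occupies 2 lines of the ENZ table that were summed, had nearly the same change in all 3 experiments (-0.31 with SR2211, -0.31 with XY011 and -0.24 with ENZ). PSMA1 had 119 RPKM with SR2211 against 116 in its vehicle, a ratio of 1.03 (95% counting interval 0.958 to 1.11), and was the alpha gene that was not lower there.

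The 7 constitutive genes of the inner beta rings were all lower with XY011, 4 of them by 0.5 or more, and all lower with ENZ, none of them by 0.5. With SR2211, 6 of 7 were lower and 1 reached 0.5. PSMB5, which encodes the chymotrypsin-like site that proteasome inhibitor drugs bind, had 46.5 RPKM with SR2211 against 68.6 in its vehicle, 43.1 FPKM with XY011 against 66.0, and 262 FPKM with ENZ against 329. Its log2 changes were -0.55 with SR2211, -0.60 with XY011 and -0.33 with ENZ, the largest decrease with SR2211 among the beta genes. PSMB6, the caspase-like site, had 75.4 RPKM with SR2211 against 91.5 in its vehicle, 82.2 FPKM with XY011 against 92.9, and 116 FPKM with ENZ against 130.0. All 3 of its changes were under 0.5 in size (-0.28 with SR2211, -0.17 with XY011 and -0.16 with ENZ). PSMB7, the trypsin-like site, had 63.8 RPKM with SR2211 against 69.3 in its vehicle, 96.9 FPKM with XY011 against 139, and 137 FPKM with ENZ against 151. Its XY011 vehicle exceeded its SR2211 vehicle by 0.99 on the log2(value + 1) scale, so its change with XY011 (-0.51) was smaller than the difference between those vehicles. In SR2211-treated cells the read ratios over vehicle were 0.678 (95% counting interval 0.606 to 0.759) for PSMB5, 0.824 (95% counting interval 0.734 to 0.924) for PSMB6 and 0.920 (95% counting interval 0.817 to 1.04) for PSMB7. These intervals cover counting error only, and reads of amplified libraries are not independent molecules.

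Of the structural beta genes, PSMB2 was lower in each experiment (-0.39 with SR2211, -0.69 with XY011 and -0.26 with ENZ), and PSMB4 had small changes throughout (0.03 with SR2211, -0.17 with XY011 and -0.09 with ENZ). PSMB1 and PSMB3 had log2 changes of -0.14 and -0.29 with SR2211, -0.31 and -0.53 with XY011, and -0.01 and -0.18 with ENZ. With XY011 the beta genes ranged from -0.69 to -0.17, a narrower span than -1.06 to -0.27 for the alpha genes.

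The inducible catalytic subunits, which replace the constitutive ones in the immunoproteasome of cells exposed to interferon, were near the limit of detection except PSMB10. PSMB8 had 1.30 RPKM with SR2211 against 0.381 in its vehicle, 0.700 FPKM with XY011 against 0.610, and 0.851 FPKM with ENZ against 0.484. PSMB9, its neighbour in the major histocompatibility complex, had 0.935 RPKM with SR2211 against 0.116 in its vehicle, 0.760 FPKM with XY011 while its vehicle was at the value written for genes without reads, and 1.06 FPKM with ENZ against 0.337. Both were higher in the treated library of each experiment, at levels of about 1. The reads behind them were few. The smallest whole numbers that gave the values were 17 reads with SR2211 against 5 in its vehicle for PSMB8, and 8 against 1 for PSMB9. The ratios were 3.42 (95% counting interval 1.21 to 11.8) and 8.04 (95% counting interval 1.08 to 357). Exons of these genes overlap on opposite strands in GENCODE 29, and the use of strand in counting is not given in the sources used here. Their reads may therefore be shared. PSMB10 had 8.54 RPKM with SR2211 against 12.1 in its vehicle, 3.93 FPKM with XY011 against 5.65, and 50.4 FPKM with ENZ against 48.6. It was lower with SR2211 (-0.46) and XY011 (-0.43) and level with its vehicle with ENZ (0.05).

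**Figure D2:**
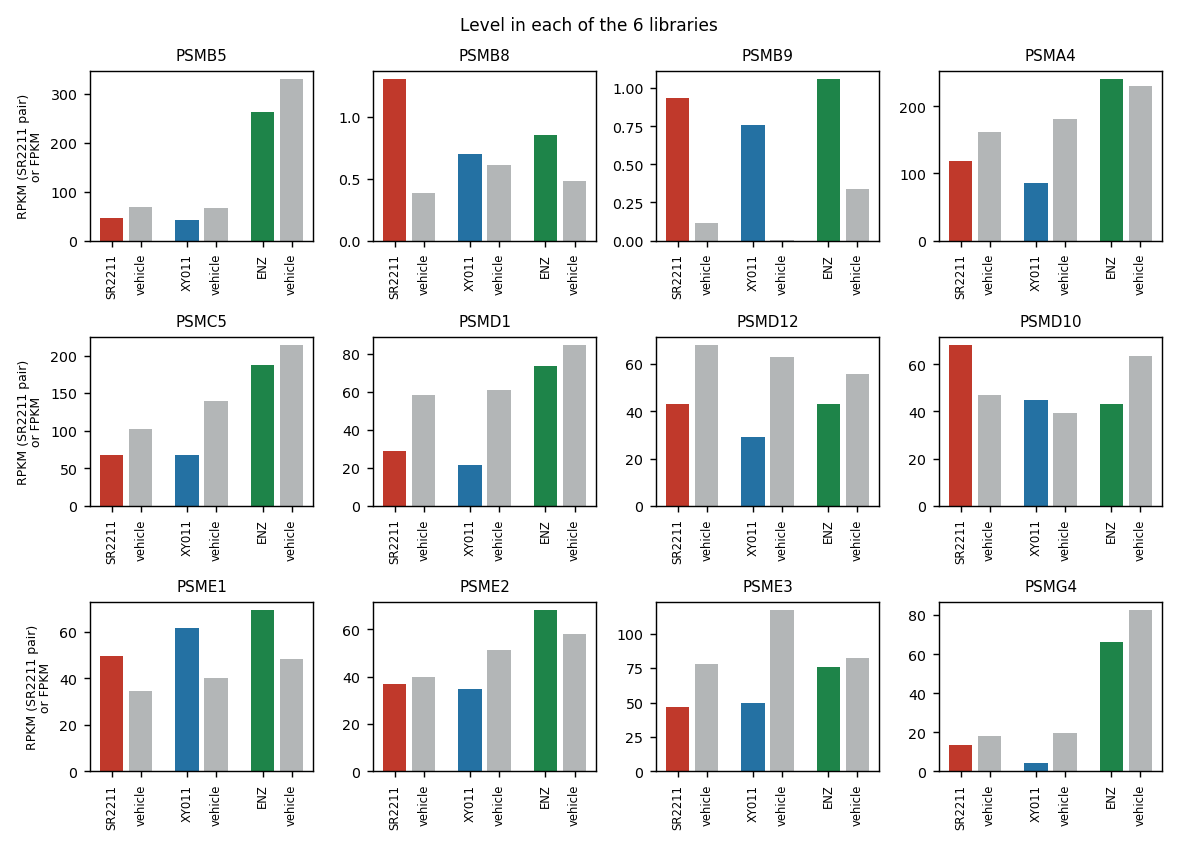
Level of 12 proteasome genes in each of the 6 libraries (bars, 1 library each, axes from 0), in RPKM for the SR2211 pair and FPKM for the others, with each treated library left of its vehicle. PSMB8 and PSMB9 stay near or under 1, PSMD1 and PSME3 are lower in each treated library, and PSME1 is higher in each.

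In the regulatory particle, all 6 ATPase genes were lower in each of the 3 experiments. Their median log2 change was -0.45 with SR2211, -0.70 with XY011 and -0.34 with ENZ. PSMC5, which encodes the ATPase Rpt6, had 68.0 RPKM with SR2211 against 102 in its vehicle, 67.9 FPKM with XY011 against 140.0, and 187 FPKM with ENZ against 214. Its log2 changes were -0.58 with SR2211, -1.03 with XY011 and -0.20 with ENZ, and its decrease with XY011 was the largest of the 6. Its read ratio with SR2211 was 0.666 (95% counting interval 0.609 to 0.727). PSMC2 and PSMC3, the ATPases Rpt1 and Rpt5, had changes of -0.52 and -0.60 with SR2211, -0.96 and -0.90 with XY011, and -0.44 and -0.30 with ENZ. PSMC1, PSMC4 and PSMC6 had changes from -0.38 to -0.16 with SR2211, -0.50 to -0.45 with XY011, and -0.39 to -0.19 with ENZ. PSMC1 stood just short of a call with XY011, and 13 pseudogenes of it are annotated in GENCODE 29, so that its reads may be split between copies.

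Among the 11 other subunits of the regulatory particle, 9 were lower with SR2211, 10 with XY011 and 9 with ENZ. PSMD1, the large scaffold subunit Rpn2 of the base, had 28.9 RPKM with SR2211 against 58.2 in its vehicle, 21.8 FPKM with XY011 against 61.1, and 73.6 FPKM with ENZ against 84.7. It had the largest decrease of all members with SR2211 (-0.99) and the largest of the regulatory particle with XY011 (-1.45), while its change with ENZ was -0.20. The smallest whole reads for PSMD1 were 786 with SR2211 and 1590 in its vehicle, a ratio of 0.497 (95% counting interval 0.455 to 0.541). PSMD12, the lid subunit Rpn5, had 43.1 RPKM with SR2211 against 68.1 in its vehicle, 29.1 FPKM with XY011 against 62.7, and 43.2 FPKM with ENZ against 55.7. Its changes followed the same order, -0.65 with SR2211, -1.08 with XY011 and -0.36 with ENZ. PSMD14, the deubiquitinase Rpn11 that strips ubiquitin from substrates, had 28.6 RPKM with SR2211 against 36.7 in its vehicle, 17.7 FPKM with XY011 against 30.2, and 30.4 FPKM with ENZ against 40.2. It was lower in each experiment (-0.35 with SR2211, -0.74 with XY011 and -0.39 with ENZ). PSMD4, the ubiquitin receptor Rpn10, had 57.6 RPKM with SR2211 against 62.1 in its vehicle, 64.3 FPKM with XY011 against 88.2, and 131 FPKM with ENZ against 145, with changes under 0.5 in size (-0.11 with SR2211, -0.45 with XY011 and -0.15 with ENZ).

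PSMD11, the lid subunit Rpn6, was lower with SR2211 and XY011 and higher with ENZ. It had 34.8 RPKM with SR2211 against 51.2 in its vehicle, 29.3 FPKM with XY011 against 54.3, and 97.3 FPKM with ENZ against 71.2. The log2 changes were -0.54 with SR2211, -0.87 with XY011 and 0.45 with ENZ, and the last was the largest increase of the regulatory particle with ENZ. PSMD8, the lid subunit Rpn12, showed the opposite arrangement. It had 137 RPKM with SR2211 against 115 in its vehicle, 179.5 FPKM with XY011 against 164, and 164 FPKM with ENZ against 219.6. The level was higher with SR2211 (0.24, read ratio 1.19, 95% counting interval 1.11 to 1.27) and slightly with XY011 (0.13), and lower with ENZ (-0.42). PSMD7 and PSMD13, the lid subunits Rpn8 and Rpn9, were within 0.1 of their vehicles with SR2211 and XY011. With ENZ their changes were 0.05 and -0.35. Lid genes thus differed among themselves, with changes from -1.08 to 0.13 with XY011. Base genes also differed, with changes from -1.45 to -0.45 with XY011, but all 8 base subunits were lower in each experiment. The base medians were -0.49 with SR2211, -0.75 with XY011 and -0.25 with ENZ, and the lid medians -0.38, -0.62 and -0.35. The remaining members of the regulatory particle, PSMD2, PSMD3 and PSMD6, had changes from -0.55 to -0.40 with SR2211, -0.85 to -0.51 with XY011, and -0.36 to -0.12 with ENZ.

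More genes of the regulatory particle than of the core were called lower with SR2211, while the particles had similar shares with XY011. The median of the core particle was -0.30 with SR2211 (16 genes tested), -0.53 with XY011 (15) and -0.17 with ENZ (16). That of the regulatory particle was -0.40, -0.60 and -0.30 over 17 genes each. The core values include PSMB8 with SR2211 and PSMB9 with ENZ, whose increases were fixed by the filter. Over the 14 constitutive core genes the medians were -0.30 with SR2211, -0.56 with XY011 and -0.20 with ENZ. Of these 14, 2 were lower by 0.5 or more with SR2211 (14.3%), 9 with XY011 (64.3%) and 1 with ENZ (7.14%). By 0.5 or more, 2 of 16 core genes and 7 of 17 regulatory genes were lower with SR2211, which is 12.5% and 41.2% beside 21.4% of all genes. This contrast depended on the processing. After quantile normalization, 2 members in all were lower by 0.5 or more with SR2211, beside 19.0% of all genes. They were PSMD1 (-0.84) of the regulatory particle and PSME3 (-0.56), which is in neither particle. With XY011 the counts were 9 of 15 core and 10 of 17 regulatory genes (60.0% and 58.8%, beside 31.6%), and with ENZ 1 of 16 and 0 of 17. The regulatory median was the lower one in each experiment. No test of the difference between the particles was made, since genes are not replicates.

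Summed over genes, the 14 constitutive core subunits came to 1179 RPKM with SR2211 against 1394 in its vehicle (-15.4%), 1052 FPKM with XY011 against 1500.1 (-29.9%), and 2351 FPKM with ENZ against 2712 (-13.3%). The 17 regulatory subunits came to 1038 RPKM with SR2211 against 1317 (-21.2%), 1005 FPKM with XY011 against 1449.5 (-30.7%), and 1841 FPKM with ENZ against 2132 (-13.6%). Both particles thus had a lower summed level in each treated library.

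**Figure D3:**
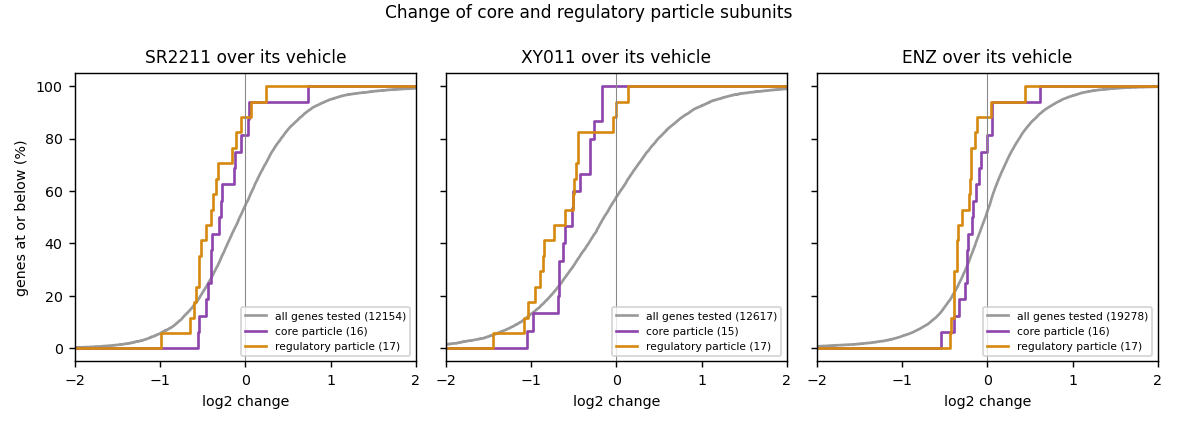
Share of genes (y axis, percent) at or below a given log2 change (x axis, shown to 2 on either side) for core and regulatory particle subunits and for all genes tested, in 1 panel per experiment with 1 library per group. At 0 both particles lie above all genes in each panel, and they end before 1. At -0.5 the core with SR2211 (12.5% against 21.4%) lies below all genes. With ENZ both particles do (core 6.25%, regulatory 0%, against 15.8%). The core curves include PSMB8 with SR2211 and PSMB9 with ENZ, whose increases were fixed by the filter. The widest gap between medians is in the XY011 panel, where they are -0.53 and -0.60 against -0.14.

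The 4 chaperones of core assembly, PSMG1 to PSMG4, which guide the alpha ring together, were lower in each experiment. Their medians were -0.37 with SR2211, -0.87 with XY011 and -0.32 with ENZ, and all 4 passed 0.5 with XY011. PSMG4 had 13.6 RPKM with SR2211 against 17.9 in its vehicle, 4.28 FPKM with XY011 against 19.7, and 66.0 FPKM with ENZ against 82.6. Its change with XY011 (-1.97) was the largest of any member in any experiment and the one that differed most from the change with SR2211 (-0.38). The smallest whole reads for PSMG4 were 52 with SR2211 and 69 in its vehicle, a ratio of 0.757 (95% counting interval 0.518 to 1.10). Exons of SLC22A23 and TUBB2B overlap PSMG4 on the other strand. PSMG1 had 37.7 RPKM with SR2211 against 56.8 in its vehicle, 25.2 FPKM with XY011 against 54.6, and 30.0 FPKM with ENZ against 37.6. It was the second of the chaperones past 1 with XY011 (-0.58 with SR2211, -1.09 with XY011 and -0.31 with ENZ). PSMG2 and PSMG3 had changes of -0.25 and -0.36 with SR2211, -0.66 and -0.66 with XY011, and -0.41 and -0.07 with ENZ.

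The chaperones of the base behaved less alike. PSMD10, which encodes gankyrin, an oncoprotein that also binds the retinoblastoma protein, had 68.2 RPKM with SR2211 against 47.1 in its vehicle, 45.0 FPKM with XY011 against 39.4, and 43.1 FPKM with ENZ against 63.7. It was higher with SR2211 (0.53, read ratio 1.45, 95% counting interval 1.31 to 1.61), less so with XY011 (0.19), and lower with ENZ (-0.55). PSMD9 had 11.4 RPKM with SR2211 against 12.8 in its vehicle, 5.31 FPKM with XY011 against 7.15, and 49.2 FPKM with ENZ against 70.5. It was lower in each experiment and was called with ENZ (-0.16 with SR2211, -0.37 with XY011 and -0.51 with ENZ). PSMD5 stood near its vehicle with SR2211 (-0.05) and XY011 (-0.10) and had a change of -0.28 with ENZ.

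The alternative activators diverged from each other. PSME1 and PSME2 encode the partner subunits of one ring-shaped activator that interferon induces. PSME1 had 49.4 RPKM with SR2211 against 34.7 in its vehicle, 61.5 FPKM with XY011 against 40.3, and 69.4 FPKM with ENZ against 48.4. It was higher in each experiment (0.50 with SR2211, 0.60 with XY011 and 0.51 with ENZ), the 1 member of 44 tested in all pairs for which this held, where 22.6% of 11108 genes were higher in all. With SR2211 its change was just under 0.5, and its read ratio was 1.42 (95% counting interval 1.24 to 1.64). PSME2 had 36.9 RPKM with SR2211 against 39.9 in its vehicle, 34.7 FPKM with XY011 against 51.3, and 68.1 FPKM with ENZ against 58.0. It was lower with XY011 (-0.55), close to its vehicle with SR2211 (-0.11, read ratio 0.927, 95% counting interval 0.777 to 1.10) and higher with ENZ (0.23). Exons of EMC9 overlap PSME1 and exons of RNF31 overlap PSME2 on the other strand. In all, 19 members have such an overlap in GENCODE 29, among them PSMC5, PSMD1, PSMD11, PSME3 and PSME4.

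PSME3, the nuclear activator PA28gamma, had 46.7 RPKM with SR2211 against 77.8 in its vehicle, 49.8 FPKM with XY011 against 117, and 76.0 FPKM with ENZ against 82.6. It was lower in each experiment, with log2 changes of -0.72 with SR2211, -1.22 with XY011 and -0.12 with ENZ, and was second to PSMD1 with SR2211 (read ratio 0.601, 95% counting interval 0.547 to 0.659). PSME4, the large nuclear activator PA200, had 39.5 RPKM with SR2211 against 33.4 in its vehicle, 24.2 FPKM with XY011 against 32.5, and 28.3 FPKM with ENZ against 32.9. Its changes had opposite signs, 0.23 with SR2211 (read ratio 1.18, 95% counting interval 1.11 to 1.26) and -0.41 with XY011. PSMF1, which encodes PI31, had 31.0 RPKM with SR2211 against 31.7 in its vehicle, 38.9 FPKM with XY011 against 39.2, and 242 FPKM with ENZ against 199.6. Its log2 changes were -0.03 with SR2211, -0.01 with XY011 and 0.28 with ENZ, so it was level with its vehicle with both SR2211 and XY011.

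SR2211 and XY011 were given at the same dose and time, each with its own vehicle. Of 44 members tested with both, 37 were lower with both, where 45.8% of 11636 genes were. By 0.5 or more, 11 were lower with both, and these 11 are all the members called lower with SR2211. They were PSMA5, PSMB5, PSMC2, PSMC3, PSMC5, PSMD1, PSMD3, PSMD11, PSMD12, PSME3 and PSMG1. PSMB8 and PSMD10 were the members called higher with SR2211, and PSME1 the one called higher with XY011. PSMB8 passed the minimum level through its SR2211 library alone, so the direction of its call was fixed by the filter. The background for such a shared decrease was 17.1%, or 1994 of 11636 genes. Over all genes, 2600 of 12154 were lower by 0.5 or more with SR2211, so most of those were lower with both as well. After quantile normalization, 2 members kept a lower call with SR2211, as given above. The change was the more negative one with XY011 for 38 of the 44 members (86.4%), against 55.7% of all genes, and the median of the XY011 change minus the SR2211 change was -0.29. With 1 pair each, this difference between the compounds was not tested, and the experiments differ in unit.

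The order of the members was similar with SR2211 and XY011. Pearson's r of their changes was 0.80 and Spearman's rho 0.83 across the 44 members, and 0.79 and 0.76 across all 11636 genes, which are not independent replicates. The members that differed most between the compounds, among those at 5 or more in all 4 libraries, were PSME4, PSMA3 and PSMA4. For PSME4 the SR2211 change minus the XY011 change was 0.65, for PSMA3 0.62 and for PSMA4 0.61. PSMG4, at 4.28 FPKM with XY011, fell outside that level rule, and its difference of 1.59 was the widest of all.

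**Figure D4:**
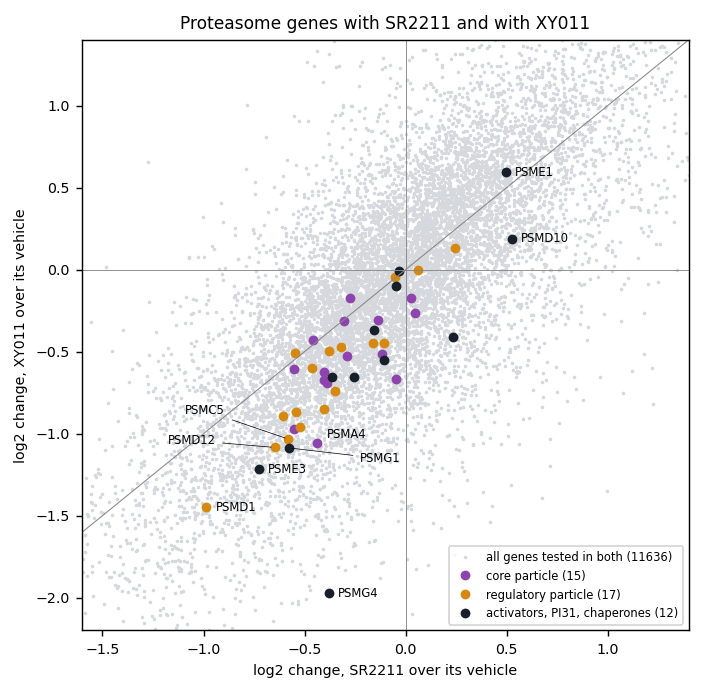
Log2 change with XY011 (y axis) against that with SR2211 (x axis), each over its own vehicle, for 44 proteasome genes (coloured by particle) and for 11636 genes tested in both experiments (grey; genes beyond the axes are not drawn). The grey diagonal marks equal change. Most proteasome genes lie below it and left of 0, with PSMG4 lowest and PSME1 and PSMD10 on the right.

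ENZ was given at a higher dose than the other agents. Called lower by 0.5 or more with ENZ were PSMD10, PSMA5 and PSMD9, and called higher were PSMB9 and PSME1. PSMB9 passed the minimum level through its ENZ library alone, which fixed the direction of its call. In all 3 experiments together, 32 of 44 members were lower in each treated library, where 31.4% of 11108 genes were.

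The rest of the ubiquitin-proteasome pathway was described with a list of 32 genes, 31 of which were listed and tested in each experiment. The medians of this list were 0.00 with SR2211, -0.07 with XY011 and -0.13 with ENZ. By 0.5 or more, 7 were lower and 4 higher with SR2211, 8 lower and 7 higher with XY011, and 2 lower and 2 higher with ENZ. Beside the shares of all genes given above, such as 21.4% lower with SR2211 and 31.6% with XY011, these counts were near the background or, with ENZ, under it.

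NFE2L1, the transcription factor that raises proteasome genes, had 117 RPKM with SR2211 against 47.9 in its vehicle, 104 FPKM with XY011 against 39.9, and 159.6 FPKM with ENZ against 124. It was higher in each experiment (1.27 with SR2211, 1.37 with XY011 and 0.36 with ENZ), opposite in direction to most subunits, and its read ratio with SR2211 was 2.44 (95% counting interval 2.31 to 2.57). NFE2L2, the related activator of antioxidant genes, had 60.7 RPKM with SR2211 against 42.2 in its vehicle, 63.4 FPKM with XY011 against 37.3, and 35.5 FPKM with ENZ against 45.8. It was higher with SR2211 (0.51) and XY011 (0.75) and lower with ENZ (-0.36). SQSTM1, a receptor that delivers ubiquitin-tagged cargo to autophagy, had 243 RPKM with SR2211 against 82.2 in its vehicle, 137 FPKM with XY011 against 75.4, and 199 FPKM with ENZ against 239, with changes of 1.55 with SR2211, 0.85 with XY011 and -0.26 with ENZ. It was the largest increase of the list with SR2211.

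The deubiquitinases that bind the regulatory particle were lower. UCHL5, a deubiquitinase of the cap, had 6.98 RPKM with SR2211 against 16.4 in its vehicle, 16.1 FPKM with XY011 against 44.2, and 23.8 FPKM with ENZ against 47.7. It was lower in each experiment (-1.12 with SR2211, -1.40 with XY011 and -0.98 with ENZ). USP14, the other deubiquitinase that docks reversibly on the cap, had 31.3 RPKM with SR2211 against 53.6 in its vehicle, 25.6 FPKM with XY011 against 58.2, and 52.1 FPKM with ENZ against 60.3, with changes of -0.76 with SR2211, -1.15 with XY011 and -0.21 with ENZ. Both thus had larger decreases with SR2211 and XY011 than PSMD14, the deubiquitinase built into the lid. UFD1L, a cofactor of the VCP segregase, had changes of -0.55 with SR2211, -1.21 with XY011 and 0.23 with ENZ. POMP, the chaperone that completes the core, had 119 RPKM with SR2211 against 137 in its vehicle, 90.9 FPKM with XY011 against 147, and 101 FPKM with ENZ against 106, with changes of -0.21 with SR2211, -0.68 with XY011 and -0.07 with ENZ. ZFAND5, a proteasome partner induced in wasting muscle, was higher with SR2211 (0.77) and XY011 (1.00) and level with ENZ (-0.01).

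UBB, which encodes repeats of ubiquitin itself, had 347 RPKM with SR2211 against 686 in its vehicle, 502 FPKM with XY011 against 1297, and 1634 FPKM with ENZ against 2008. It was lower in each experiment, with changes of -0.98 with SR2211, -1.37 with XY011 and -0.30 with ENZ. Ubiquitin repeats are nearly identical between genes, so reads could be split and this level is uncertain. UBA6, an enzyme that activates ubiquitin, had 13.2 FPKM with ENZ against 28.7 in its vehicle (-1.07) and was level with SR2211 (0.00).

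**Figure D5:**
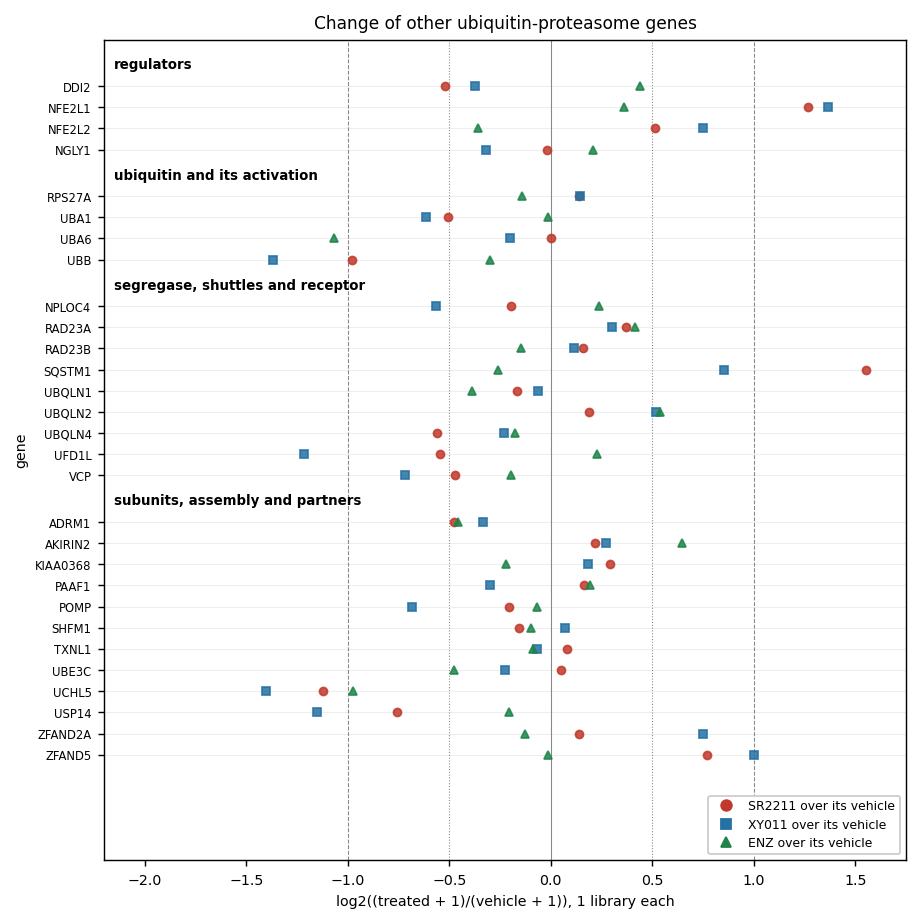
Log2 change of other genes of the ubiquitin-proteasome pathway (rows) over the vehicle of the same experiment, with SR2211 as circles, XY011 as squares and ENZ as triangles, 1 library each. NFE2L1 and SQSTM1 lie to the right and UCHL5, USP14 and UBB to the left with SR2211 and XY011.

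The vehicle libraries gave a measure of differences between experiments of one labelled condition. Between the XY011 and SR2211 vehicles the log2 difference of the 46 members ranged from -0.98 (PSMB10) to 0.99 (PSMB7), with a median size of 0.21 and a size of 0.5 or more for 6 members. The SR2211 change was larger in size than this difference for 25 of its 45 members, and the XY011 change for 35 of its 44. The ENZ vehicle stood farther away, with a median size of difference of 0.55 from the SR2211 vehicle, and 16 members differed by 1 or more. Against that difference, the change was larger in size for 15 members with SR2211, 17 with XY011 and 12 with ENZ. PSMA5 had 277 FPKM there against 29.6 FPKM in the XY011 vehicle and 29.8 RPKM in the SR2211 vehicle, and PSMC1 had 39.5 FPKM there against 97.0 FPKM and 97.2 RPKM. The tables were scaled separately, so levels are compared within an experiment.

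Counting error could be given for the SR2211 pair, where whole reads were found for all 46 members. The smallest matching numbers had a median of 816 reads in the vehicle and ranged from 1 for PSMB9 to 3941 for PSMD2. True numbers may be multiples of them, with narrower intervals. The 95% interval of the ratio lay wholly below 1 for 26 members, where 35.6% of 12123 genes were, wholly above 1 for 6, where 27.9% were, and held 1 for 14. The 6 were PSMB8, PSMB9, PSMD8, PSMD10, PSME1 and PSME4. The 12123 genes all met the minimum level, which PSMB9 missed and PSMB8 met through its SR2211 library alone.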

How the data were processed

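Libraries were made from poly(A) RNA with a TruSeq kit, per the labels' protocols. The authors deposited RPKM for the SR2211 experiment and FPKM for the XY011 and ENZ experiments, per the file headers. Tools listed in the submitters' processing notes are Cuffdiff, Cufflinks, Bowtie and BWA, with hg19 or GRCh37. The role of each tool, the annotation and the use of strand were not given in the sources used here. Judged from the values, 0.01 in the SR2211 tables and 0.001 in the XY011 tables stood in for genes without reads.

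Lines of 1 gene were summed (by Entrez identifier, or symbol for ENZ), and small RNA genes were left out. Changes were log2((treated + 1)/(vehicle + 1)) for genes at 1 or more in either library, with Python 3.11.15 and pandas 2.3.3. Calls rest on size alone. Reads behind RPKM were found as the smallest whole numbers that give both values of a gene at the depth at which 34 of 35 microRNA genes with SR2211 and 26 of 26 in its vehicle were whole within 0.001 read. Intervals are exact binomial 95% intervals (SciPy 1.17.1). The code was tested on simulated data.

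The members, gene lists, and rules were chosen with earlier results of these data known. Named genes are the catalytic, inducible and receptor subunits, activators and chaperones, members past 1 or among the 3 largest changes of a pair, the 3 that differ most between SR2211 and XY011, and list genes past 1. Other members are given by their changes. Some genes of the pathway list are not reported here by name. The alternatives comprised 6 planned settings (a smaller pseudocount, a higher filter or none, rescaling, centring and quantile normalization). A further one, a mean of 20 or more, was chosen after seeing the data.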

Additional observations from a re-analysis of the deposited data

Results flagged for a closer look

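PSMD10, the gankyrin gene, was past 0.5 in opposite directions in different experiments. Its log2 change was 0.53 with SR2211 and -0.55 with ENZ. With 1 library per group this difference was not tested. The gene has 3 annotated pseudogenes, and its reads may be split between copies.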

How the results depend on the processing

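No median of the members changed sign under the alternatives tried, but members with small changes did. With SR2211, quantile normalization put PSMA3 (0.09), PSMB7 (0.04), PSMD4 (0.04), PSME2 (0.01) and PSMF1 (0.10) above their vehicle. With XY011, PSMF1 came to lie above its vehicle after centring (0.13) and after quantile normalization (0.10). With ENZ, quantile normalization put PSMA3 (0.01) above its vehicle, and rescaling put PSMA4 (-0.05) and PSMB10 (-0.06) below theirs. These are examples among the named genes, and the other members were not followed one by one. Counts of members lower by any amount therefore depend on the scaling. Quantile normalization gave medians for all members, core and regulatory particle of -0.17, -0.16 and -0.28 with SR2211 and -0.42, -0.42 and -0.47 with XY011. Centring on the median gene gave -0.39, -0.38 and -0.46 with XY011, and rescaling each library to a sum of 1000000 gave -0.33, -0.28 and -0.41 with ENZ. Members lower by 0.5 or more with SR2211 numbered 6 after centring (18.0% of all genes) and 2 after quantile normalization (19.0%). With XY011 they numbered 16 after quantile normalization (25.7%), and with ENZ 7 after rescaling (18.1%) and 0 after quantile normalization (14.5%). Members higher by 0.5 or more numbered 1 with SR2211 and 1 with ENZ at a mean of 5 or more and likewise at a mean of 20 or more, 2 with XY011 without a filter, and 0 with ENZ after rescaling. The cause was not tested. Centring moved the share of higher among larger calls over all genes to 51.1% with XY011 from 36.5%, and rescaling to 32.1% with ENZ from 44.1%. Among genes at a mean of 20 or more the median was -0.14 with SR2211, -0.14 with XY011 and -0.04 with ENZ. Of 733 values of named genes under alternatives, 643 were labelled the same. For a called gene this meant that it still passed 0.5, whatever its level, and for an uncalled gene a shift of at most 0.1. Another 57, all of uncalled genes, moved by more than 0.1. A call was lost for 25 and gained for 8, and none that was called reversed. No paired analysis was possible because each group has 1 library. Depth limits PSMB8 and PSMB9, whose reads are few.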

Other observations

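The ENZ table also lists 24 pseudogenes of proteasome genes, 21 of them at 1 FPKM or more in either library. PSMC1P5 stood at 199 FPKM with ENZ against 268 FPKM in its vehicle, while PSMC1 itself had 29.9 against 39.5. PSMA6P1 had 59.2 FPKM with ENZ against 74.6, beside 106 against 139 for PSMA6. PSME2P2 had 42.7 FPKM with ENZ against 78.6 (log2 -0.87), whereas PSME2 was higher with ENZ (0.23). How reads were divided between a gene and its copies was not tested.

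PSMC3IP, whose name resembles the subunits but whose product acts in homologous recombination, had 3.49 RPKM with SR2211 against 9.31, 26.3 FPKM with XY011 against 38.1, and 9.51 FPKM with ENZ against 18.9. The antisense gene PSMD5-AS1 had 5.60 RPKM with SR2211 against 3.20, 5.67 FPKM with XY011 against 3.77, and 8.10 FPKM with ENZ against 12.6. PSMB11, the thymus-specific catalytic subunit, was listed in the SR2211 experiment alone, at 0.0647 RPKM with SR2211, and was at the value written for genes without reads in its vehicle.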
